A study of Mus musculus with 2 samples.

Results

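The regions described here are those that chromatin immunoprecipitation called at the proximal start of the mouse autosomes, the first assembled megabase next to the centromere. They are all regions of either list that start below position 4000000 on chromosomes 1 to 19 in build mm9. No autosomal region of either list started before position 3000000, so the window ran from 3 to 4 Mb on each of the 19 autosomes. Sample 1 had 200 such regions of 25592 in its list and sample 2 had 276 of 42619, together 476 of 68211. The data came from corneal epithelium of mice at postnatal day 7 that carried K14 DN-Clim, a transgene for a Myc-tagged dominant-negative Clim protein, and the antibody recognised the Myc tag. The keratin 14 promoter is active in basal cells of stratified epithelia, so the tagged protein is made in the epithelium and not in every cell of the cornea. There was 1 group of 2 samples, both K14 DN-Clim. Input, untagged and wild-type libraries were not analysed here, and the counts therefore stand without a measured background. Nothing in the labels says whether the samples came from separate animals, so their agreement may be technical.

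Clim proteins, also called Ldb proteins, are nuclear cofactors that bridge LIM-domain transcription factors and have no known DNA-binding domain of their own. A dominant-negative Clim keeps the part that binds LIM domains. Mouse autosomes are telocentric: the centromere sits at one end, next to long arrays of major satellite (in the pericentromeric heterochromatin) and minor satellite (at the centromere itself). These arrays are largely missing from the assembled genome, where a block without sequence stands for them, and the first assembled bases after it can hold satellite copies, duplicated segments or ordinary single-copy sequence. The sequence of the regions was not analysed here, because no mm9 sequence was at hand.

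The proximal megabase as a whole held regions at about the density of the chromosomes, but they were unevenly spread within it. In sample 1 the 200 regions came to 10.5 per Mb, against 10.3 per Mb over the rest of the 19 autosomes, a ratio of 1.02. In sample 2 the 276 regions came to 14.5 per Mb against 17.1 per Mb, a ratio of 0.849. The window was 0.787% of the autosomal length considered and held 0.806% of the autosomal regions of sample 1 and 0.669% of those of sample 2. The next megabase, from 4 to 5 Mb, held 174 regions in sample 1 and 288 in sample 2, and the last megabase of each autosome held 178 and 312. With 2 samples in 1 group and no control library, these differences have no test, and regions are not replicates of a condition. Without chromosome 9 the ratio was 0.906 in sample 1 and 0.838 in sample 2. That chromosome had the highest proximal count of sample 1 and was left out after this was seen, so a lower sample 1 ratio was bound to follow.

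On most autosomes the proximal megabase held fewer regions than the chromosome mean, but most other megabases also lay below the autosomal mean. The proximal megabase held fewer regions than the mean megabase of the same chromosome on 12 of 19 autosomes in sample 1 and on 14 of 19 in sample 2. The count per chromosome ran from 1 to 33 in sample 1, with a median of 8, and from 1 to 34 in sample 2, with a median of 14. Over the 2387 other autosomal megabases the median was 9 in sample 1 and 15 in sample 2. The means over the rest of the autosomes were 10.3 and 17.1 per Mb. Only 1009 of these megabases reached 11 regions in sample 1, and 955 reached 18 in sample 2. Sample 2 had more proximal regions than sample 1 on 17 autosomes and as many on chromosome 14. Chromosome 9 was the exception, with 33 regions in sample 1 and 18 in sample 2.

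Chromosome 11 was the densest proximal end when both lists were counted together, with 24 regions in sample 1 and 34 in sample 2. These were 1.78 and 1.61 times the mean of the rest of the chromosome. Of the 117 other megabases of chromosome 11, 14 in sample 1 and 19 in sample 2 held as many regions or more, so the proximal end of this region-rich chromosome lay in its upper range without leading it. Chromosome 9 followed with 33 and 18 regions, 3.04 and 1.04 times its mean. In sample 1 none of the 120 other megabases of chromosome 9 reached that count, while in sample 2 a count of 18 was reached by 52 of them. Chromosome 12 was above its mean in both samples, with 15 and 21 regions (1.71 and 1.35 times), as was chromosome 7 with 13 and 18 regions (1.37 and 1.17 times).

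The sparsest proximal end was that of chromosome 14, with 1 region in each sample. The sample 1 region, from 3021074 to 3021153, scored 279.73. The sample 2 region, from 3017788 to 3017843, scored 117.98. They did not overlap and lay 3230 bp apart, and no further region of chromosome 14 followed in either list before 4 Mb. Chromosome 6 had 5 regions in sample 1 and 6 in sample 2, 0.563 and 0.399 times its mean, and chromosome 5 had 8 and 9 (0.632 and 0.433 times). The plot of counts by chromosome sets each proximal count beside the mean of its own chromosome.

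**Figure D1:**
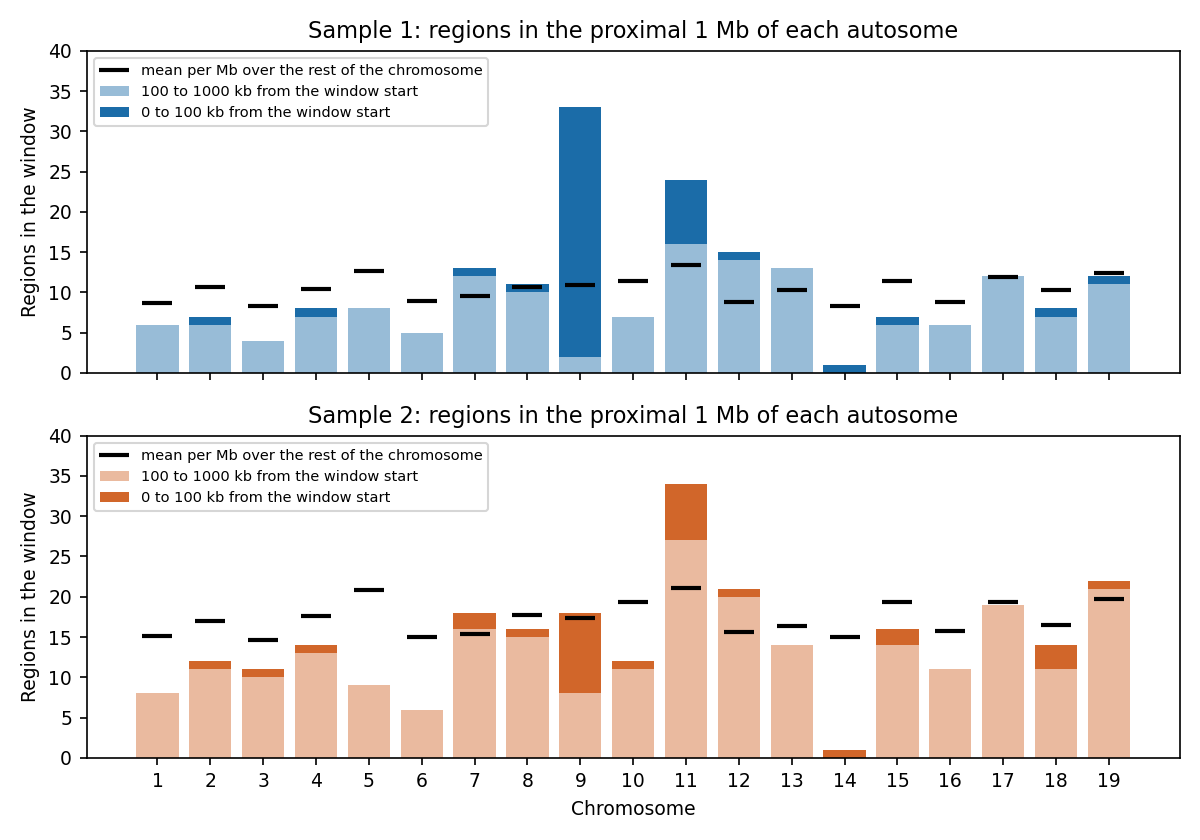
Regions called in the proximal megabase (y axis, number of regions) of each autosome (x axis) in sample 1 (top) and sample 2 (bottom). The dark part of a bar counts regions in the first 100 kb, the light part those in the other 900 kb, and the black line is the mean per Mb over the rest of that chromosome; in sample 1, 31 of the 33 regions of chromosome 9 lie in the first 100 kb.

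In region count the first 100 kb of the window stood apart from the 900 kb that follow in sample 1, through chromosome 9, and not in sample 2. This division was made after the data were seen. In sample 1 the first 100 kb of the 19 autosomes held 48 regions, 25.3 per Mb, while the following 9 bins of 100 kb held 11 to 22 regions each. In sample 2 it held 32 regions, 16.8 per Mb, within the range of 22 to 35 over the following 9 bins. Chromosome 9 alone held 31 of the 48 regions in sample 1 and 10 of the 32 in sample 2. Without it the first 100 kb had 9.44 regions per Mb in sample 1 and 12.2 in sample 2. Chromosome 11 held 8 and 7. The remaining 17 chromosomes held 9 and 15 regions in all, 5.29 and 8.82 per Mb, below the 10.3 and 17.1 per Mb of the rest of the autosomes. Some chromosomes had no region in this part: the first region of a chromosome began as late as 3308988 on chromosome 3 in sample 1 and 3239803 on chromosome 6 in sample 2. How much of this part is assembled on each chromosome was not tested. In the other 900 kb the density was 8.89 per Mb in sample 1 and 14.3 per Mb in sample 2.

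The tip of chromosome 9 carried the largest group of closely spaced regions in the sample 1 list. Between 3000002 and 3038330, 31 sample 1 regions followed one another with gaps of 57 to 9245 bp, a median of 643.5 bp. They covered 6153 bp, 16.1% of that stretch. When autosomal regions were joined wherever the gap was at most 10 kb, this chain of 31 was the longest in sample 1, and the longest chain beyond 4 Mb had 8 regions, on chromosome 12. Sample 2 had 9 regions within the same 40 kb, covering 1218 bp. The longest autosomal chain of sample 2 was 12 regions, on chromosome 4 beyond 4 Mb.

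Only 2 of the 31 sample 1 regions on the tip of chromosome 9 overlapped a sample 2 region. The first was the very first region of the chromosome, from 3000002 to 3000286 in sample 1 and from 3000001 to 3000275 in sample 2. It scored 1488.17 in sample 1, rank 8 of its list, and 108.76 in sample 2, rank 11482. The score is the peak caller's value for a region as the authors deposited it. What it measures is not stated, so it serves here only to rank regions within 1 list. The second was the region from 3035676 to 3036228 in sample 1 (score 793.43, rank 20), which met a sample 2 region from 3035689 to 3035995 (score 62.39, rank 31485). Both pairs were near the top of the sample 1 list, while their sample 2 regions stood at percentiles 73.1 and 26.1, where 100 is the highest score of a list.

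The other 29 sample 1 regions of the tip lay 59 to 7738 bp from the nearest sample 2 region, a median of 1169 bp. Among them was the region from 3025422 to 3025693, with a score of 724.02 at rank 33. The region from 3026606 to 3026830 scored 477.15 at rank 280 and lay 59 bp from a sample 2 region that scored 54.19. Scores were mixed along the tip: 11 of the 31 were in the upper 10% of the sample 1 list and 14 were in its lower 50%. The sample 2 regions of the tip ranked lower in their own list, with a median percentile of 26.1 against 65.0 in sample 1. Beyond this tip the proximal megabase of chromosome 9 was nearly empty in sample 1, with 2 regions against 9 in sample 2, and no region was shared.

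The tip of chromosome 11 was covered in both samples, by wide regions that overlapped. In sample 1, 5 regions between 3000375 and 3004467 covered 1753 bp, 42.8% of the stretch, and all 5 overlapped a sample 2 region. In sample 2, 7 regions between 3000194 and 3004763 covered 3328 bp, 72.8% of the stretch, and 4 of them overlapped a sample 1 region. The widths ran from 171 to 562 bp in sample 1 and from 260 to 737 bp in the other list. The strongest sample 2 region, from 3003927 to 3004454, scored 186.63 at rank 1624. Its sample 1 partner, from 3003912 to 3004467, scored 115.73 at rank 19931. Of the 5 sample 1 regions, 4 had a partner of higher percentile in sample 2. The exception was the first, from 3000375 to 3000582, at percentile 62.9 in sample 1, whose partner stood at percentile 4.36. In the remainder of the first 100 kb, sample 1 had 3 more regions and sample 2 had none. These included a 1370 bp region from 3093013 to 3094382, the widest proximal region of sample 1. From there to 4 Mb, 15 of the 16 sample 1 regions of chromosome 11 were shared.

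**Figure D2:**
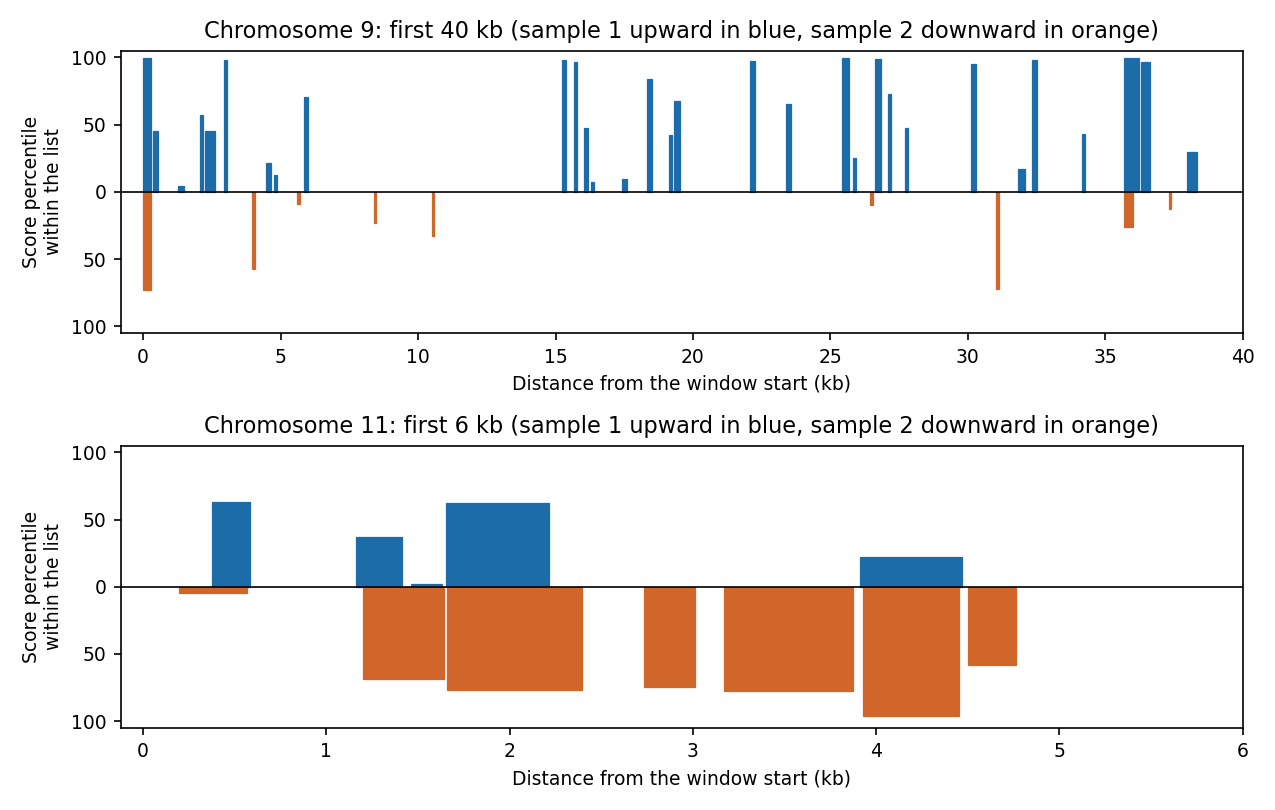
Called regions at the tips of chromosome 9 (top, first 40 kb) and chromosome 11 (bottom, first 6 kb), by distance from position 3000000 in kb (x axis). Each bar spans 1 region and its height is the score percentile within its list, upward for sample 1 and downward for sample 2; chromosome 9 has 31 upward and 9 downward bars that rarely face each other, while on chromosome 11 all 5 upward bars face a downward one.

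Sample 2 had a smaller group of its own on chromosome 16. Between 3243992 and 3270282 it had 6 regions, 198 to 538 bp wide, that covered 1992 bp, and sample 1 had none within at least 127600 bp. Their scores were low, from 51.39 to 87.75, and 5 of the 6 were in the lower 50% of the list. This group was singled out after its values were seen. On chromosome 18 all 8 sample 1 regions overlapped a sample 2 region, among 14 in sample 2. The same held for all 7 of chromosome 15. These chromosomes were also picked after their values were seen. Of the sample 1 regions of the rest of the autosomes 80.6% overlapped one, so full overlap of so few regions does not set them apart.

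Sharing between the lists was lower in the proximal window than elsewhere in sample 1 and about the same in sample 2. Sharing here means at least 1 bp in common with some region of the other replicate. In sample 1, 134 of the 200 proximal regions were shared (67.0%, exact Clopper-Pearson 95% interval 60.02 to 73.5%), against 80.4% of the whole list and 80.6% of the rest of the autosomes. In sample 2, 134 of the 276 were shared (48.6%, 42.5 to 54.6%), against 48.4% of the whole list and 48.5% of the rest. The intervals cover counting error only and treat regions as independent, which closely spaced regions are not. Merged, the proximal regions gave 133 shared regions, 66 in sample 1 only and 142 in sample 2 only.

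The deficit in sample 1 was largest in the first 100 kb, and within it on chromosome 9, where 2 of 31 regions were shared. Over all autosomes 15 of 48 sample 1 regions of the first 100 kb were shared (31.3%, 18.7 to 46.3%), and 119 of 152 in the other 900 kb (78.3%, 70.9 to 84.6%). Without chromosome 9, 132 of 167 sample 1 regions of the whole window were shared (79.0%, 72.1 to 85.0%), and 13 of 17 in the first 100 kb. In sample 2 the share was 14 of 32 in the first 100 kb (43.8%, 26.4 to 62.3%) and 49.2% in the other 900 kb. Along the rest of the window the sample 1 share per 100 kb bin ran from 60 to 94.1%, and the bin from 100 to 200 kb was the lowest of these. The bins from 200 to 300 kb and from 300 to 400 kb gave 66.7 and 68.2%, also below the 80.6% of the rest. Later bins of the window gave 76.5% or more. These bins are small, and beyond 4 Mb a bin went as low as 64.3%.

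Higher-scoring regions were shared more often, but on the tip of chromosome 9 sharing was low for high and low scores alike. Over the rest of the autosomes, 85.5% of the sample 1 regions in the upper 50% of the list by score were shared with a region of the complete sample 2 list. Those in the lower 50% were shared in 75.7% of cases. In the proximal window 77 of 101 upper-scoring regions were shared (76.2%, 66.7 to 84.1%), and in its first 100 kb 12 of 28 (42.9%, 24.5 to 62.8%). On chromosome 9 the first 100 kb had 17 upper-scoring regions, of which 2 were shared, and 14 lower-scoring ones, of which 0 were. Without that chromosome, 75 of 84 upper-scoring proximal regions were shared (89.3%, 80.6 to 94.98%). In sample 2, 87 of 148 upper-scoring proximal regions were shared (58.8%, 50.4 to 66.8%), against 62.1% of those of the rest. The lower-scoring sample 2 regions of the rest were shared in 35.1% of cases.

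**Figure D3:**
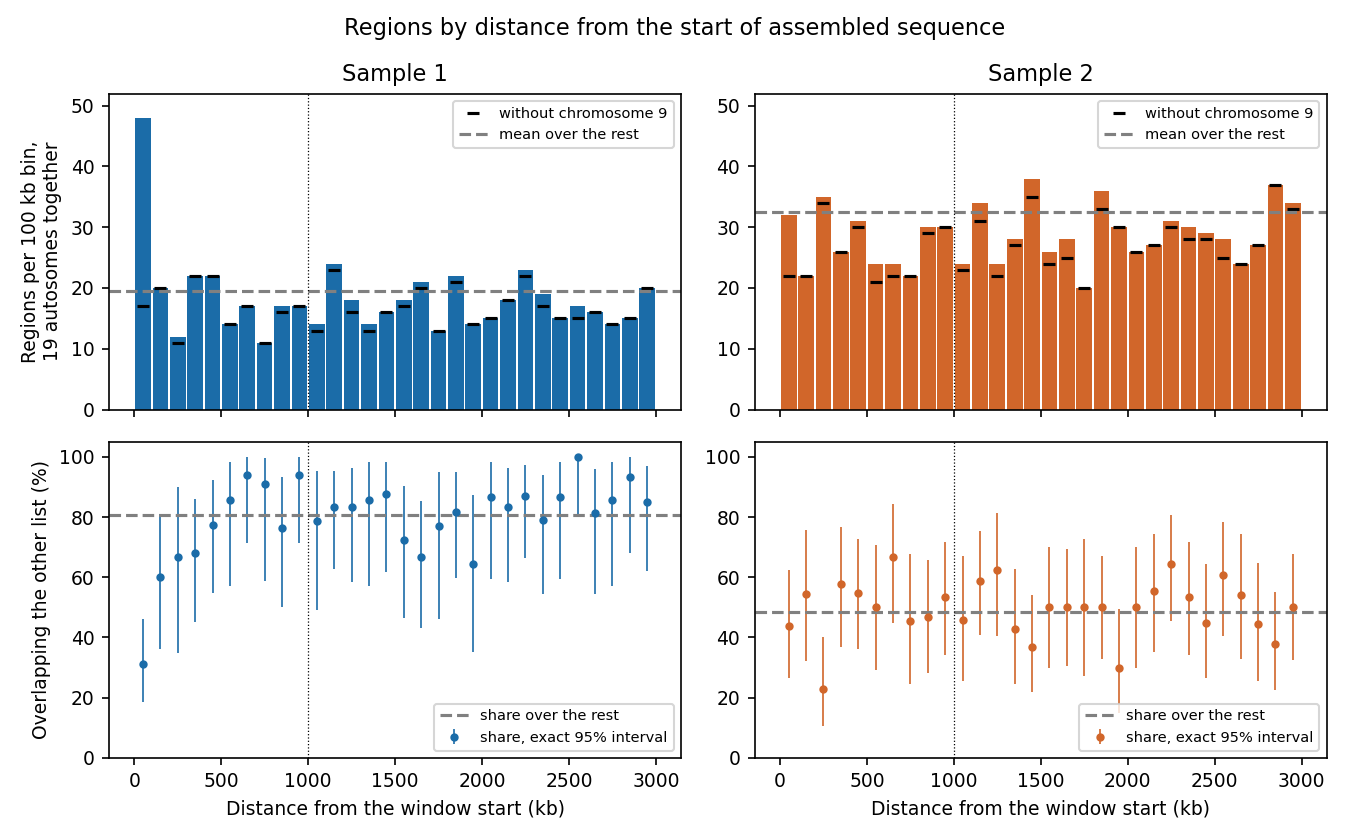
Regions by distance from position 3000000 in bins of 100 kb over the 19 autosomes (x axis, kb), as counts (top) and as the percentage that overlaps the other list with exact 95% intervals (bottom), for sample 1 (left) and sample 2 (right). Dashed lines are the values over the rest of the autosomes, black dashes the counts without chromosome 9, and the dotted line marks the end of the proximal megabase; the first sample 1 bin holds 48 regions, 17 without chromosome 9, and 31.3% of the 48 are shared.

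Unshared proximal regions were not always far from the other list. In the first 100 kb, 14 of the 33 unshared sample 1 regions lay within 1 kb of a sample 2 region, all of them on chromosome 9. In the other 900 kb this held for 1 of 33. Of the unshared sample 1 regions of the rest, 6.38% lay that close. In sample 2, 9 of the 18 unshared regions of the first 100 kb lay within 1 kb of a sample 1 region, 5 of them on chromosome 9 and 3 on chromosome 11. The share over the unshared sample 2 regions of the rest was 4.47%.

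In score rank the proximal regions resembled the lists as a whole, apart from an excess at the very top in sample 1. The median score percentile was 50.7 in sample 1 (quartiles 25.6 and 76.9) and 52.2 in sample 2 (quartiles 28.7 and 73.2). Of the sample 1 regions, 32 were in the upper 10% of the list (16%, 11.2 to 21.8%). Of the sample 2 regions, 23 were (8.33%, 5.36 to 12.2%). Among the 100 highest scores of a list, which with ties make up 0.395% of sample 1 and 0.239% of sample 2, there were 7 proximal regions in sample 1 (3.5% of 200, 1.42 to 7.08%) and 1 in sample 2. Of these 7, 3 were on the tip of chromosome 9. Without chromosome 9 there were 4 of 167 (2.40%, 0.656 to 6.02%). In the other 900 kb 15 of 152 sample 1 regions were in the upper 10%.

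The 10 highest-scoring proximal regions of sample 1 began with the first region of chromosome 9. The next was a region of chromosome 12, from 3109835 to 3110162, with a score of 1242.64 at rank 11, which lay 16563 bp from the nearest sample 2 region. A chromosome 4 region followed, from 3016862 to 3018011, which scored 914.33 at rank 18. Further regions outside chromosome 9 were on chromosome 6 from 3477010 to 3477122 (582.35, rank 96) and chromosome 2 from 3658269 to 3658390 (580.22, rank 97). A region of chromosome 13, from 3372279 to 3372598, scored 545.76 at rank 135 and lay 10799 bp from any sample 2 region. One of chromosome 12, from 3093184 to 3093268, scored 536.27 at rank 152. Its sample 2 partner scored 82.96 at rank 20922. The remaining 3 of the 10 were those of chromosome 9 given above, so 4 of the 10 came from that tip and 4 of the 10 were not shared.

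All 10 of the highest-scoring proximal regions of sample 2 were shared. How often equally high ranks of the rest are shared is not given here for either list. The first was the chromosome 4 region, from 3016594 to 3018413, with a score of 510.17 at rank 15. The second was that of chromosome 2, from 3658283 to 3658390 (236.66, rank 515), and the third one of chromosome 4 from 3185588 to 3185665 (213.01, rank 902). The others scored between 186.63 and 201.20 and lay on chromosomes 1, 5, 6, 7, 11, 15 and 17. Their partners did not all rank high: the chromosome 1 region from 3903517 to 3903579 (201.20) had a sample 1 partner with a score of 157.69 at rank 14263, and that of chromosome 7 from 3339659 to 3339719 (189.35) had one with 125.59 at rank 18822.

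High rank in both lists was held by 6 of the 134 overlapping proximal pairs, each at or above percentile 95 in sample 1 and sample 2. The share of pairs of the rest that pass this cut is not given here, so the 6 are named as a description only. The widest was the chromosome 4 region near the chromosome tip, which spanned 1150 bp in sample 1 and 1820 bp in the other list. The second region of chromosome 4 spanned 88 bp in sample 1 and 78 bp in sample 2 and scored 476.23 and 213.01. The chromosome 2 region scored 580.22 and 236.66, and the chromosome 6 region 582.35 and 188.31. A chromosome 17 region, which spanned 3218253 to 3218338, had scores of 420.90 in sample 1 and 198.77 in sample 2. One of chromosome 18, spanning 3446677 to 3446761, had 378.22 and 181.85. Only the first of these 6 lay in the first 100 kb, and none lay on chromosome 9.

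Over the 134 overlapping proximal pairs, Spearman's rho between the scores was 0.149, and it was 0.176 over the 19832 pairs of the rest. These are descriptions across regions that share a library, and regions are not replicates. Within the 15 pairs of the first 100 kb the median percentile was 92.1 in sample 1 and 63.7 in sample 2. In the 119 pairs of the other 900 kb these medians were 54.7 and 58.1.

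Regions of at least 200 bp were more frequent in the first 100 kb than in the lists as a whole, in both samples. Regions of at least 200 bp made up 3.97% of the sample 1 list and 6.23% of the sample 2 list. In the first 100 kb they were 19 of 48 in sample 1 (39.6%, 25.8 to 54.7%) and 12 of 32 in sample 2 (37.5%, 21.1 to 56.3%). In the other 900 kb they were 4 of 152 (2.63%, 0.722 to 6.60%) and 11 of 244 (4.51%, 2.27 to 7.92%). The 12 in sample 2 lay on chromosomes 11 (7), 9 (2), 18 (2) and 4 (1), and the 19 in sample 1 on chromosomes 9 (11), 11 (6), 4 (1) and 18 (1). Without chromosome 9 they were 8 of 17 regions of the first 100 kb in sample 1 and 10 of 22 in sample 2. Without chromosomes 9 and 11 they were 2 of 9 and 3 of 15, so the wide regions of the first 100 kb came mainly from those tips.

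Both lists consist of a narrow and a wide class of regions, divided at 100 bp in sample 2 and slightly higher in sample 1. The narrow class held 62.7% of the sample 1 list and 47.5% of the sample 2 list. In the proximal window they were 104 of 200 in sample 1 (52%, 44.8 to 59.1%) and 147 of 276 in sample 2 (53.3%, 47.2 to 59.3%). In the first 100 kb they were 7 of 48 in sample 1 (14.6%, 6.07 to 27.8%), and 1 of the 31 on the tip of chromosome 9. In sample 2 they were 16 of 32, and 6 of the 9 on that tip. These 9 were at least 81 bp wide with a median of 90 bp, so the class of some depended on the boundary. Narrow sample 2 regions of the rest had a median width of 64 bp. The sample 1 regions of the tip had a median of 178 bp. In the other 900 kb the narrow share was 63.8% in sample 1 and 53.7% in sample 2. Over the window the median widths of samples 1 and 2 were 101.5 and 92 bp, in its first 100 kb 177.5 and 104 bp, and over the rest 83 and 106 bp.

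Wide regions of the first 100 kb ranked higher in their lists than wide regions elsewhere. Over the rest of the autosomes the median percentile was 63.7 for narrow and 19.7 for wide regions in sample 1, and 64.8 and 34.9 in sample 2. In the first 100 kb it was 92.1 for the 7 narrow and 54.2 for the 41 wide regions of sample 1, the same order as elsewhere. In sample 2 it was 51.4 for the 16 narrow and 66.3 for the 16 wide regions, the reverse order. Without chromosome 9 the wide median was 37.3 (11 regions) in sample 1 and 63.7 (13 regions) in sample 2. Without chromosomes 9 and 11 it was 97.3 for the 3 wide regions of sample 1 and 12.2 for the 6 of sample 2. In the other 900 kb the medians of the wide regions were 21.7 and 40.2. Wide proximal regions of sample 1 were shared in 48 of 96 cases (50.0%, 39.6 to 60.4%), against 78.8% of the wide regions of the rest. In sample 2 they were shared in 67 of 129 cases (51.9%, 42.97 to 60.8%), against 46.6%. Narrow ones of sample 1 were shared in 86 of 104 cases, 82.7%, against 81.6%. Without chromosome 9, 46 of 66 wide proximal regions of sample 1 were shared (69.7%, 57.2 to 80.4%).

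**Figure D4:**
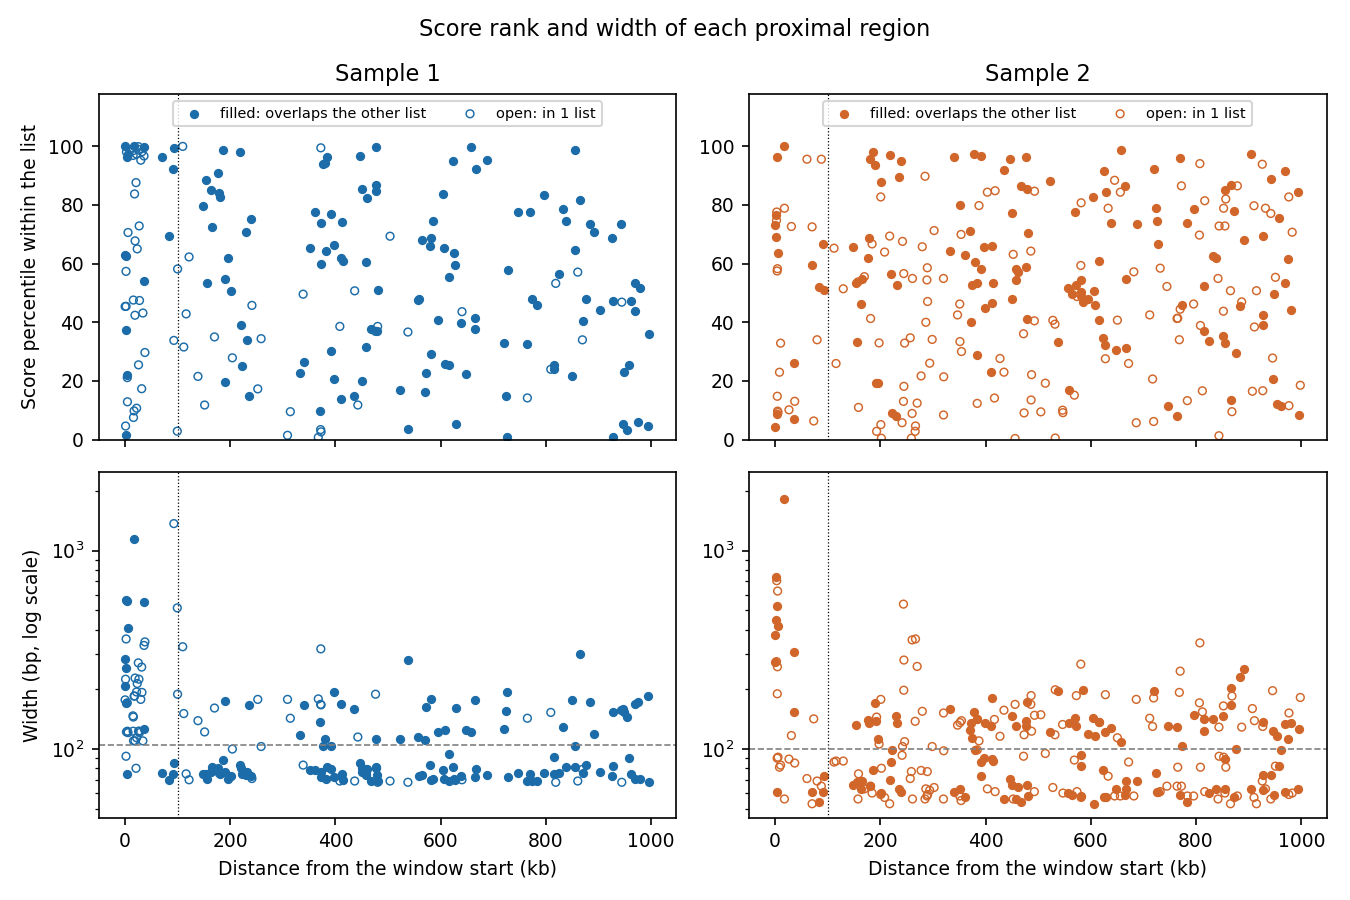
Score percentile within the list (top) and width in bp on a log axis (bottom) of every proximal region against its distance from position 3000000 in kb, for sample 1 (left) and sample 2 (right). Filled points overlap the other list, open points do not, the dotted line marks 100 kb and the dashed line the boundary between narrow and wide regions; regions wider than 600 bp lie in the first 100 kb in both lists.

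Median spacing followed the same division, while close neighbours were more frequent than in the rest in both parts of the window. The median distance from a proximal region to its nearest neighbour in the same list was 21.1 kb in sample 1 and 14 kb in sample 2, close to the 23.7 and 15.0 kb of the rest. In the first 100 kb it was 0.416 kb in sample 1 and 2.85 kb in sample 2, and in the other 900 kb 27.2 and 14.3 kb. Neighbours within 1 kb were found for 43 of 200 proximal regions of sample 1, 17 of 167 without chromosome 9. In sample 2 they were found for 44 of 276, and for 44 of 258 without chromosome 9. The first 100 kb held 30 of 48 such regions in sample 1 and 10 of 32 in sample 2. In the other 900 kb they were 13 of 152 (8.55%) and 34 of 244 (13.9%). In the rest they were found for 4.51% and 8.49%.

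The starts of shared proximal regions met at the same base about as often as elsewhere, and the ends more often. Of the 134 pairs, 10 had the same start (7.46%), against 7.76% of the pairs of the rest, and 18 the same end (13.4%), against 7.53%. This difference has no test. By width class, 52 pairs were narrow in both lists, 33 were wide in both, 34 were narrow in sample 1 alone and 15 in sample 2 alone. Of the 15 pairs in the first 100 kb, 10 were wide in both and 5 narrow in both.

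The regions on either side of the 4 Mb limit are given as a description. In sample 1 the last region inside, 3995114 to 3995181 of chromosome 11, scored 144.40 and the first outside, 4007016 to 4007180 of chromosome 7, scored 88.94. In sample 2 the last inside, 3998143 to 3998324 of chromosome 2, scored 58.61 and the first outside, 4002591 to 4002646 of chromosome 19, scored 85.86. From 4 to 5 Mb 78.2% of the sample 1 regions and 47.2% of the sample 2 regions were shared, and from 5 to 6 Mb 86.6% and 51.2%. In the last megabase of the autosomes these shares were 77.5% and 44.2%.

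The proximal genes of these chromosomes can be named only from a RefSeq table of another build, GRCm38, whose coordinates were not used, so no region was assigned to a gene. Its first protein-coding genes could be read for 9 autosomes. On chromosome 9 they were Alkbh8, which modifies transfer RNA, Cwf19l2 and Gucy1a2, a subunit of soluble guanylate cyclase. On chromosome 8 they began with Insr, the insulin receptor, on chromosome 3 with Hnf4g, a nuclear receptor, and on chromosome 13 with Gdi2, a regulator of Rab proteins. On chromosome 19, where the window held 12 regions in sample 1 and 22 in sample 2, the third was Cpt1a, an enzyme of fatty acid entry into mitochondria. On chromosome 2 the list was Fam171a1, Nmt2, a protein N-myristoyltransferase, and Rpp38, a subunit of ribonuclease P.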

How the data were processed

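The data are 2 lists of called regions, 1 for each Myc-tag immunoprecipitate. The submitters' processing notes name Bowtie 0.12.7, bedtools 2.11.2 and build mm9 with no settings. Region names in the deposited lists begin with MACS, a peak caller, whose version, thresholds and control are not given in the sources used. Per the labels' protocols, reads of 2 lanes were combined for each replicate. The score is as deposited by the authors, its meaning unstated, and served only as a rank within a list. The lowest was 70.03 in sample 1 and 50.00 in sample 2, so the cutoffs of the lists may differ. Read counts were not at hand, so depth and its precision are unknown.

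Regions were compared with pandas 2.3.3, numpy 2.4.6 and scipy 1.17.1 (Python 3.11.15) and plotted with matplotlib 3.10.9. Coordinates count from 1. The rest of a chromosome ran from 4 Mb to its last region in either list. Intervals are exact (Clopper-Pearson) at 95%. The code was tested on simulated lists. Members, limits and lists were chosen with earlier results of these data known. Named regions were the 10 highest scores per list, shared regions at or above percentile 95 in both, the 2 chromosomes with most members, and those next to the 4 Mb limit; others were chosen after their values were seen. Alternatives changed the window limit, its start, the score limit, the overlap rule, the width boundary, the replicates and the chromosomes used.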

Additional observations from a re-analysis of the deposited data

How the results depend on the processing

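Values with both samples are means of their values. The ratio of proximal to other density, 0.937 with both samples, ranged from 0.849 to 1.02 when either replicate was left out, so its side of 1 rested on the sample. It also rested on the window: starting at the first region gave 1.01 (sample 1, 1.10), and the limit at 5 Mb took sample 1 to 0.957. With the limit at 3.5 Mb it was 1.08 (sample 1, 1.27), and without chromosomes 9 and 11 it was 0.808 (sample 1, 0.835). Without the first 100 kb it was 0.865 in sample 1. The shared percentage with both samples, 57.8%, ranged from 48.6 to 67.0% between them. In sample 1, 67.0% became 54.0% with the limit at 3.5 Mb, 53.5% with both lists reduced to their upper 50% by score and 53.5% with a reciprocal overlap of 50%. Reducing both lists also removes partners, unlike the 76.2% above, where the other list was kept whole. The rest of the sample 1 list gave 57.9% and 62.6% under the reduced lists and the reciprocal overlap. The proximal share of sample 1 became 79.0% without chromosome 9, 78.3% without chromosomes 9 and 11 and 78.3% without the first 100 kb, alternatives chosen after seeing the data. In sample 2, 48.6% became 36.5% with both lists so reduced and 38.8% with reciprocal overlap, against 34.9% and 37.6% of its rest. The median percentile with both samples, 51.5, ranged from 50.7 to 52.2 between them, and was 55.9 with the limit at 3.5 Mb, 58.4 for shared members and 49.9 without the first 100 kb. The narrow share with both samples, 52.6%, ranged from 52 to 53.3% between them. It was 50.4% with the limit at 3.5 Mb, 48.8% and 55.9% with boundaries 10 bp lower and higher, 56.6% without chromosome 9, 58.7% without chromosomes 9 and 11 and 58.8% without the first 100 kb. Of sample 2, 5 chromosomes were denser proximally. Chromosomes 9 and 11 were among them, so leaving these out necessarily left 3. Causes were not tested. No paired analysis was possible because there was 1 group. Without depth, a region missing from 1 list cannot be told from one that was not detectable there.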

Other observations

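The sex chromosomes lie outside the 19 autosomes described above. On chromosome X neither sample had a region below 4 Mb, and the first region started at 5131096 in sample 1 and 5024366 in sample 2. A count of 0 allows up to 3 regions, for counting error only. On chromosome Y all 44 regions of sample 1 and all 80 of sample 2 started below 4 Mb, the last ending at 2902412 and 2890219. Of these, 24 in sample 1 and 23 in sample 2 were shared, and the median width was 185 bp and 146.5 bp.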
